A study of Homo sapiens with 6 samples.

Results

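AOPEP encodes aminopeptidase O, an enzyme that removes single amino acids from the amino terminus of peptides, and it was examined together with 8 other peptidases of the cell surface, the cytosol and the endoplasmic reticulum: LTA4H, RNPEP, NPEPPS, ERAP1, LNPEP, ANPEP, ENPEP and DPP4. AOPEP was chosen by its fold change between the same 6 arrays, so its values are given as a description with no test. The other genes were added for their protein family and function. On the array, 17 of 22215 probe sets carried the symbol of exactly 1 of these genes in the platform annotation, and all 17 were kept whatever their signal. They represented 8 of the 9 genes: AOPEP, LTA4H, RNPEP and ANPEP had 1 probe set each, ENPEP had 2, NPEPPS and DPP4 had 3 each and ERAP1 had 5. No probe set was listed for LNPEP alone, so LNPEP has no value here.

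The arrays compared E1, which the labels call a metastatic colon cancer line derived in vivo, with HCT116, an established human colon cancer line called poorly metastatic. Each line was hybridised to 3 Affymetrix arrays from biotin-labelled total RNA. The cell line label of E1 also reads HCT116, and the labels give neither the host, nor the site of growth, nor whether E1 is a clone. They do not say whether the 3 arrays of a line came from separate cultures, so errors and p-values cover only the scatter among these 6 arrays, and part of it may be technical.

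Most of these enzymes belong to the M1 family of zinc aminopeptidases, which share a catalytic fold and differ in the residues they remove and in where they act. ANPEP (CD13) and ENPEP sit on the plasma membrane, where they trim peptide hormones and dietary peptides, and both are abundant on the intestinal brush border. LTA4H, RNPEP and NPEPPS act mainly in the cytosol, and ERAP1 trims peptides in the endoplasmic reticulum before they are loaded on MHC class I molecules. LNPEP, the insulin-regulated aminopeptidase, cycles between vesicles and the cell surface. DPP4 (CD26) is not an M1 enzyme: it is a surface serine protease that removes dipeptides and inactivates incretin hormones. AOPEP has been reported to convert angiotensin III to angiotensin IV, the step that follows the one catalysed by ENPEP.

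AOPEP carried the large difference described next, and its 2 annotated starts are shown with the 300 bases around each, since its transcripts may begin at either. The windows come from RefSeq, build GRCh38.p14, and are read 5′ to 3′ on the plus strand, at chr9:94726449-94726748 for the upstream start and chr9:94920968-94921267 for the downstream start. Capitals mark TGACGTCA, the cAMP response element, and GGGCGG, the GC box, read on both strands.
AOPEP upstream start: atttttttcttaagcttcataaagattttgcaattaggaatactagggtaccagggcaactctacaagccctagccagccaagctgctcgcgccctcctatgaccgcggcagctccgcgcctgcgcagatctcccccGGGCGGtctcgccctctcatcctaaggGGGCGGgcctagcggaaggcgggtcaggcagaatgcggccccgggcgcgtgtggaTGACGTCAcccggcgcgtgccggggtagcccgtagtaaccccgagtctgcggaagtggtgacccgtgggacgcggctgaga
AOPEP downstream start: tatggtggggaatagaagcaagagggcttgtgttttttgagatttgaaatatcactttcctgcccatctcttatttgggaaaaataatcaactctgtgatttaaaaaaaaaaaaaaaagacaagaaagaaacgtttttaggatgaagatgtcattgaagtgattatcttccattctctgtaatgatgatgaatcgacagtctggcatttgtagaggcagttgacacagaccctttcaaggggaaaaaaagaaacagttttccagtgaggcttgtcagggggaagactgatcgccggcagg

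The upstream window was GC-rich, with 63% G or C, against 38.7% in the downstream window and a median of 58.7% over 35116 RefSeq windows of this length. It held TGACGTCA once, starting at base 220, and GGGCGG at bases 138 and 165. Over all windows 1.848% contained TGACGTCA and 44.95% contained GGGCGG. The shorter motif TGACG, present in 24.55% of windows, matched in the upstream window inside the full element, which it overlaps. Also searched on both strands were the CCAAT motif (34.61% of windows), the TATAAA box (11.53%), the AP-1 motif TGANTCA (7.709%) and the HNF1 core GTTAAT (6.883%). None of these 4 was in the upstream window, and the downstream window matched none of the 7 motifs. RefSeq windows were found for all 9 genes, 15 in all, and the upstream AOPEP window was the 1 of the 15 with TGACGTCA. The motifs were picked after the sequences had been read, and a match of letters is not evidence of binding.

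AOPEP, chosen for its fold change on these arrays, read higher in E1. Its probe set, 212848_s_at, read 991, 672 and 1159 intensity units on the E1 arrays, against 114, 71.4 and 95.7 on the HCT116 arrays. Every E1 array was above every HCT116 array, and the lowest E1 value lay far above the highest HCT116 value. The means were 940 ± 247 in E1 and 93.8 ± 21.5 in HCT116 (SD, n = 3 each). The log2 fold change, the difference of mean log2(intensity + 32) between E1 and HCT116, was 2.93 with a standard error (SE) of 0.24, and it stood in place 6 of 22215 probe sets ordered from the highest E1-over-HCT116 change down. Each array measured bulk RNA, so more cells with the transcript and more transcript per cell cannot be told apart. The offset of 32 places a signal of 0 at 5 on the log2 scale and makes changes of dim genes look smaller. With offsets of 1 and 100 the AOPEP value was 3.30 and 2.40.

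The E1 arrays were uneven in 5′ signal, which is commonly read as a sign of RNA quality, and its cause was not tested. Control probe sets for GAPDH and ACTB gave ratios of 3′ to 5′ signal of 0.803 and 1.12 on E1 array 1, 34.1 and 46.1 on E1 array 2 and 71.9 and 89.9 on E1 array 3, against 0.774 to 1.00 on the HCT116 arrays. AOPEP read 991 on E1 array 1, which lacked this loss of 5′ signal, and with that array alone standing for E1 its log2 fold change was 3.04. Median intensity per array was 48.0 to 61.2 in E1 and 61.8 to 66.5 in HCT116. The 9 probe sets of 8 markers of the labelled epithelial type summed to 11821 to 15677 in E1 and 18343 to 20585 in HCT116. Their median log2 fold change was -0.40. At an unadjusted p under 0.05 there were 4 lower and 0 higher of the 9, against 16.5% of all probe sets in either direction. These 4 belonged to KRT18 (-0.40), CDH1 (201130_s_at, -1.18), CLDN7 (-1.67) and KRT8 (-2.91), and the last 3 were lowest on E1 arrays 2 and 3. KRT8 read 2862, 372 and 103 in E1, against 4693, 3169 and 4352 in HCT116, and with E1 array 1 alone these 4 stood between -0.48 and -0.28. EPCAM read 1692, 2950 and 3428 in E1, against 1956, 2009 and 1885 in HCT116. The other CDH1 probe set, 201131_s_at, was brighter, with means of 716 in E1 and 705 in HCT116, and stood at 0.03. EPCAM stood at 0.40, KRT20 at 0.50, CLDN4 at -0.16 and KRT19 at -0.80. The 13 probe sets of 10 leukocyte markers summed to 305 to 380 in E1 and 292 to 405 in HCT116, those of 10 fibroblast and pericyte markers to 704 to 893 in E1 and 680 to 790 in HCT116, and those of 6 endothelial markers to 152 to 180 in E1 and 126 to 151 in HCT116. None of the marker probe sets passed the test described next. The part of the marker shifts and of the 5′ loss in the other values was not tested.

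**Figure D1:**
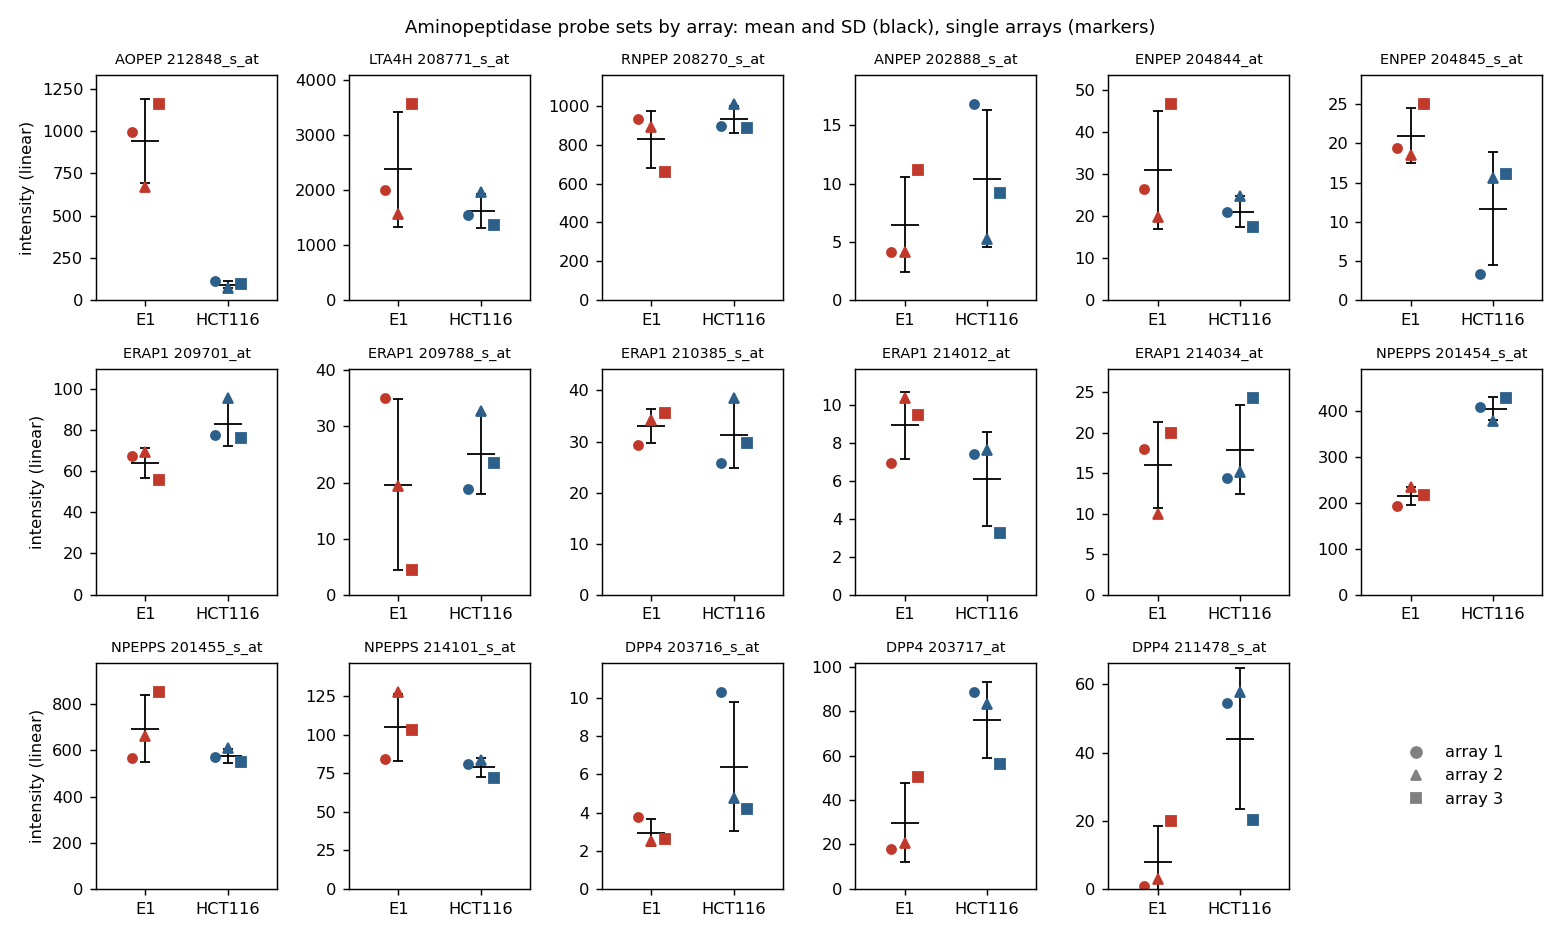
Linear intensity (y axis) of each of the 17 aminopeptidase probe sets on the 3 E1 arrays (red) and the 3 HCT116 arrays (blue), with each line's mean and SD in black and a marker shape for each array. AOPEP reads 672 to 1159 in E1 and 71.4 to 114 in HCT116. In 7 of the other 16 probe sets the lines do not overlap, against 20.5% of all probe sets.

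None of the probe sets of the other aminopeptidases passed the test. AOPEP was not counted, having been chosen by its fold change on these arrays. The lines were compared with limma over all 22215 probe sets, and calls were made where the p adjusted by Benjamini-Hochberg was under 0.05. Of the 16 probe sets of the other 7 measured genes, 0 were called, against 171 of 22215, or 0.770%, over the whole table. The 171 split into 48 higher and 123 lower in E1, or 79 and 108 with quantile normalization and 79 and 127 with array medians subtracted. Without E1 array 1 the number was 2358, and it was 5 to 9 without any other single array. At an unadjusted p under 0.05 there were 3 of the 16, all lower in E1, against 16.5% of all probe sets, a share close to that of the members. Their log2 fold changes ran from -0.92 to 0.47 with a median of -0.10, beside a median of -0.02 over all probe sets, and 7 were positive and 9 negative. In 7 of the 16 the arrays of E1 and HCT116 did not overlap, against 20.5% of all probe sets. Those 7 came from 4 genes, and 3 of them from DPP4 alone, so they are not independent.

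**Figure D2:**
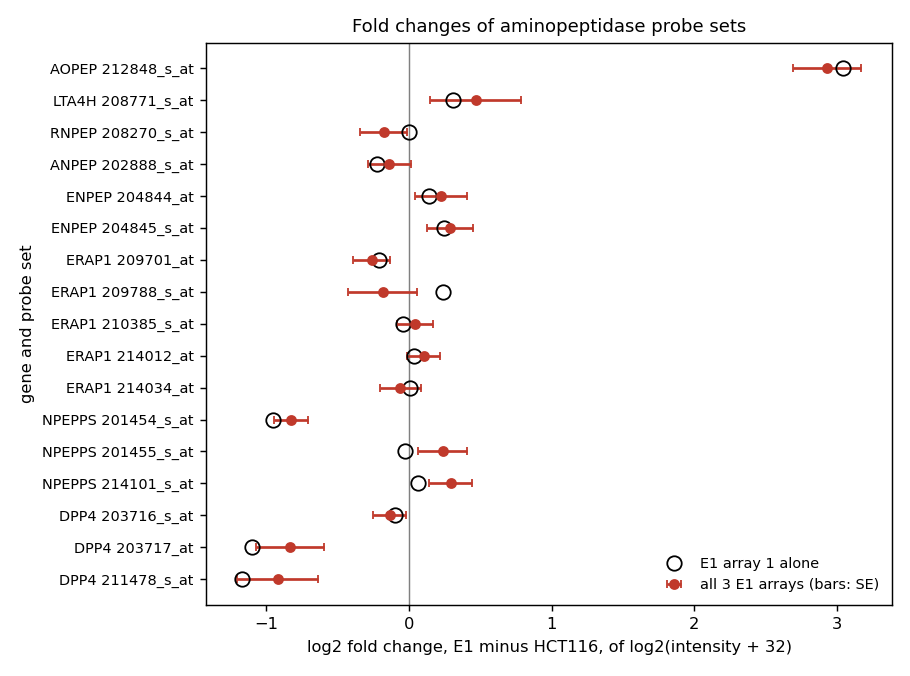
Log2 fold change (x axis, E1 minus HCT116) of each aminopeptidase probe set with all 3 E1 arrays (red, bars are the SE of the limma fit) and with E1 array 1 alone (open circles). AOPEP stands at 2.93 and 3.04, and the other 16 probe sets lie between -1.17 and 0.47.

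Among the cytosolic enzymes, LTA4H, which hydrolyses leukotriene A4 to leukotriene B4 and also acts as an aminopeptidase, read 2001, 1578 and 3568 in E1, against 1560, 1964 and 1364 in HCT116. E1 array 3 was high, and the other E1 arrays lay among or just above the HCT116 values. The log2 fold change was 0.47 (SE 0.32, adjusted p = 0.528, limma), and its 95% interval from -0.30 to 1.24 includes no change. Without E1 array 3 it was 0.14, and without E1 array 2 it was 0.72.

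RNPEP, aminopeptidase B, which removes basic residues, read 931, 891 and 659 in E1, against 895, 1008 and 884 in HCT116. The lines overlapped, with the lowest value on E1 array 3. The log2 fold change was -0.17 (SE 0.16, adjusted p = 0.680, limma), with a 95% interval from -0.57 to 0.22, and it was -0.03 without E1 array 3 and 0.01 with E1 array 1 alone.

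The 3 probe sets of NPEPPS, the puromycin-sensitive aminopeptidase that degrades short peptides released by the proteasome, differed in sign. Probe set 201454_s_at read 194, 235 and 217 in E1, against 408, 379 and 428 in HCT116. All E1 arrays lay below all HCT116 arrays, with little spread within either line. Its means were 215 ± 20.3 in E1 and 405 ± 24.5 in HCT116 (SD, n = 3 each), a log2 fold change of -0.82 (SE 0.12) whose adjusted p of 0.0518 in limma fell just short of the threshold. It passed with an offset of 100, at -0.68 (adjusted p = 0.0434, limma). It also passed without E1 array 1, at -0.76 (adjusted p = 0.0212, limma), where 2358 of all 22215 probe sets were called. In limma the adjusted p was 0.0954 with quantile normalization, 0.131 with array medians subtracted, 0.113 in the trended robust fit and 0.195 with an offset of 1. Without any other single array it was 0.124 to 0.238. With E1 array 1 alone the log2 fold change was -0.95.

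Probe set 201455_s_at of the same gene read 565, 665 and 851 in E1, against 572, 609 and 548 in HCT116. E1 array 1 lay within the HCT116 range and the other E1 arrays above it. The log2 fold change was 0.24 (SE 0.17, adjusted p = 0.556, limma), 0.09 without E1 array 3, 0.37 without E1 array 1 and -0.03 with E1 array 1 alone. Probe set 214101_s_at read 84.0, 127 and 103 in E1, against 80.7, 83.5 and 72.1 in HCT116, and its lowest E1 value was only just above the highest HCT116 value. Its log2 fold change was 0.29 (SE 0.15, adjusted p = 0.396, limma), 0.18 without E1 array 2 and 0.07 with E1 array 1 alone. The human genome holds near-identical copies of NPEPPS sequence, and whether a probe set of this gene also binds such a transcript was not tested.

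ERAP1, the trimming enzyme of the endoplasmic reticulum, had 5 probe sets, none above 95.3 units on any array. Probe set 209701_at read 67.2, 69.0 and 55.6 in E1, against 77.5, 95.3 and 75.8 in HCT116. E1 lay below HCT116 without overlap, but the shift was small, with a log2 fold change of -0.26, an SE of 0.13, an adjusted p of 0.382 in limma and a 95% interval from -0.57 to 0.05. The accession listed for 209701_at in the platform annotation may belong to another gene, and whether it measures ERAP1 was not tested. The remaining 4 read between 3.23 and 38.5 on all arrays, overlapped between the lines and stood at log2 fold changes of -0.18, 0.04, 0.10 and -0.06, with adjusted p from 0.738 to 0.925. The signs of 209788_s_at, 210385_s_at and 214034_at turned under other settings. In the RefSeq gene table ERAP1, its paralogue ERAP2 and LNPEP lie in this order on chromosome 5, with 3 uncharacterised LOC entries among them. ERAP2 read 1.35, 2.36 and 1.82 in E1, against 3.02, 2.06 and 3.58 in HCT116, near 0 in both lines.

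The surface aminopeptidases ANPEP and ENPEP never read above 46.7 units in either line. ANPEP (202888_s_at) read 4.17, 4.14 and 11.2 in E1, against 16.8, 5.29 and 9.20 in HCT116, all below the median intensity of every array. No order can be read from values this low, and the log2 fold change was -0.14 (SE 0.15, adjusted p = 0.747, limma), -0.03 without HCT116 array 1 and -0.61 with an offset of 1. ENPEP, which converts angiotensin II to angiotensin III, read 26.5, 19.8 and 46.7 in E1 on 204844_at, against 21.0, 24.8 and 17.4 in HCT116. On its other probe set, 204845_s_at, it read 19.4, 18.5 and 25.0 in E1, against 3.42, 15.5 and 16.1 in HCT116. The log2 fold changes were 0.23 (SE 0.18, adjusted p = 0.613, limma) and 0.29 (SE 0.16, adjusted p = 0.430, limma). The first was 0.05 without E1 array 3 and 0.36 without E1 array 2, and the second 0.15 without HCT116 array 1. With an offset of 1 they were 0.46 and 1.02. Detection calls were not used here, so neither gene is called absent.

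All 3 probe sets of DPP4 had lower values in E1, without passing the test on any, and the sign of 203716_s_at turned with array medians subtracted. Probe set 203717_at read 18.1, 20.9 and 50.2 in E1, against 88.5, 83.1 and 56.3 in HCT116. E1 array 3 came close to the lowest HCT116 array, and the other E1 arrays lay well below. The means were 29.7 ± 17.8 in E1 and 76.0 ± 17.2 in HCT116 (SD, n = 3 each), a log2 fold change of -0.83 (SE 0.24, unadjusted p = 0.0119, adjusted p = 0.184, limma). Probe set 211478_s_at read 0.938, 2.90 and 20.0 in E1, against 54.4, 57.6 and 20.2 in HCT116, and E1 array 3 and HCT116 array 3 were nearly equal. Its log2 fold change was -0.92 (SE 0.28, unadjusted p = 0.0162, adjusted p = 0.207, limma). The third, 203716_s_at, never exceeded 10.3 and stood at -0.13. With E1 array 1 alone the first pair stood at -1.10 and -1.17, and over all settings they ran from -1.45 to -0.44 and from -2.92 to -0.41, the widest values coming from offsets of 1 and 100.

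AOPEP lies on chromosome 9, and the 10 nearest measured genes on either side in RefSeq order were examined to see whether they shared its shift. Their 35 probe sets, from 20 genes, centred on a log2 fold change of -0.03 (median) and ran from -1.13 to 0.47. None was called higher in limma, with 0 higher at an unadjusted p under 0.05. The immediate neighbours, the gluconeogenic enzyme gene FBP1 and the Fanconi anaemia gene FANCC, stood at -0.03 and -0.14 on 1 probe set each, and both signs turned with quantile normalization, to 0.12 and 0.09. Of the 35, 1 was called lower, against 0.770% of all probe sets called in either direction. It was 200767_s_at of FAM120A, an RNA-binding protein gene, which read 152, 127 and 114 in E1, against 371, 279 and 325 in HCT116. Its log2 fold change was -1.13 (SE 0.15, adjusted p = 0.0446, limma). Without E1 array 1 it stood at -1.22 (adjusted p = 0.0112), and without any other single array it ran from -1.22 to -1.03 and was not called, with adjusted p from 0.113 to 0.206. Another FAM120A probe set, 200774_at, overlapped between the lines at -0.09. At an unadjusted p under 0.05, 6 of the 35 were lower, or 17.1%, near the 16.5% of all probe sets in either direction.

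**Figure D3:**
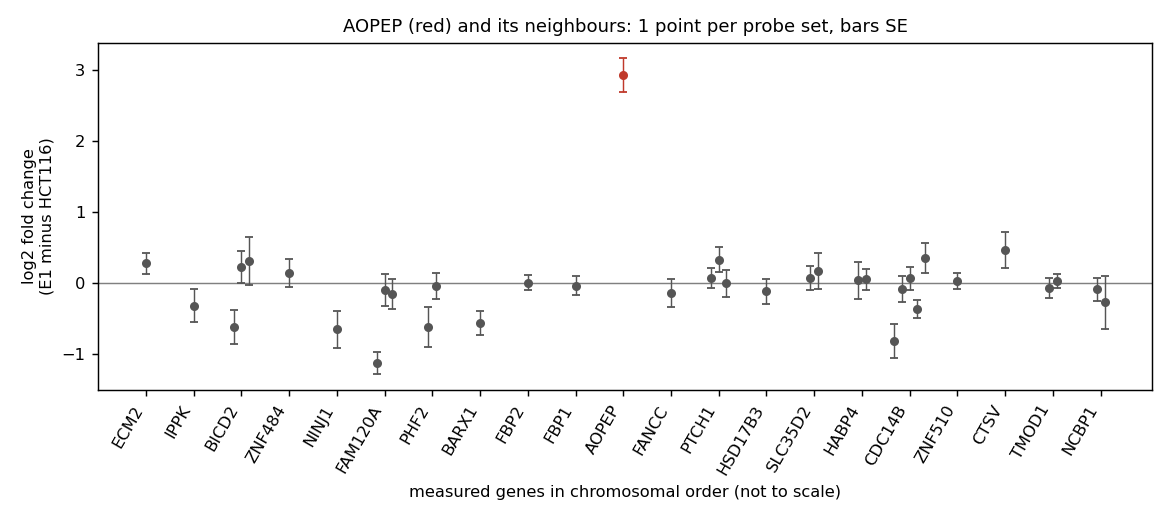
Log2 fold change (y axis, E1 minus HCT116) of AOPEP in red and of the 10 nearest measured genes on each side in grey, in chromosomal order, with 1 point per probe set and bars for the SE. The neighbours lie between -1.13 and 0.47, and AOPEP stands at 2.93.

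The genes whose profile over the 6 arrays was most like that of AOPEP were found by Pearson's r of log2(intensity + 32) among 9930 probe sets with 1 symbol and a mean signal above the median. They were the surface glycoprotein gene CD24 (r = 0.995), the calcium-binding protein gene S100A4 (r = 0.993), PLCXD1 (r = 0.990), the imprinted gene PEG10 (r = 0.989) and the formin gene DAAM1 (r = 0.989). With 6 arrays in 2 lines these coefficients mostly reflect the step between the lines, and they share the arrays' scaling. All 5 were selected for following the step in AOPEP, itself chosen by that step, so their log2 fold changes of 2.26, 1.27, 1.22, 1.63 and 0.51 are a description with no test. PEG10 read 144 to 198 in E1 and 17.9 to 48.5 in HCT116, below the median of each HCT116 array, so it passed the filter on mean signal through E1. For each gene only the probe set most like AOPEP was kept. CD24 had a brighter probe set, which is not described here. CD24 (216379_x_at) read 874, 585 and 1072 in E1, against 149, 140 and 149 in HCT116. Like AOPEP it was lowest on E1 array 2 and highest on E1 array 3, as were S100A4, PEG10 and DAAM1. PLCXD1 was lowest on E1 array 1. Selection by r over the same arrays favours a shared order. Within the aminopeptidases r with AOPEP ran from -0.97, for NPEPPS 201454_s_at, to 0.65, for ENPEP 204845_s_at.

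**Figure D4:**
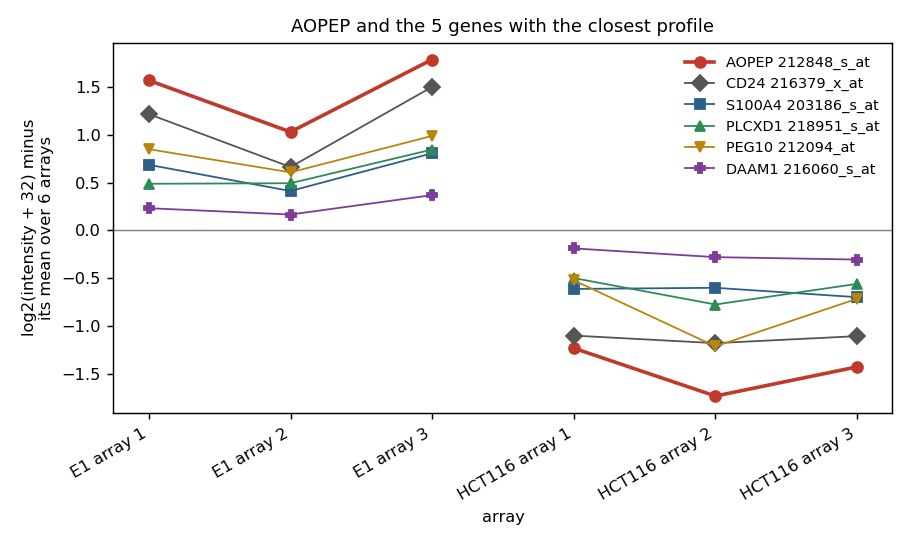
Log2(intensity + 32) minus its mean over the 6 arrays (y axis) for AOPEP and the 5 genes most like it, by array, E1 arrays first. In every gene the 3 E1 arrays lie above 0 and the 3 HCT116 arrays below, with log2 fold changes from 0.51 for DAAM1 to 2.93 for AOPEP.

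Lists of related genes were described beside the members. None of their 115 probe sets, from 82 genes in 5 lists, was called in limma, against 0.770% of all probe sets. An unadjusted p under 0.05 was found for 19, near the 16.5% of the whole table. Without E1 array 1, 10 of the 115 were called, in a setting where 2358 of all 22215 probe sets were called. The E1 arrays left in that setting were those with low 5′ control signal. Among the 10 were XPNPEP1, TRHDE, CTSG, CTSA, THOP1, PSME3 and SLC5A1. Without any other single array 0 of the 115 were called. The list of other exopeptidases had 36 probe sets of 25 measured genes out of 29 listed, with a median log2 fold change of -0.24. Those with an unadjusted p under 0.05 numbered 1 higher and 7 lower. XPNPEP1, which removes residues ahead of a proline, read 327, 268 and 211 in E1, against 636, 735 and 517 in HCT116. The lines did not overlap, and the log2 fold change was -1.14, with an SE of 0.20 and an adjusted p of 0.0753 in limma. Its other probe set, 209045_at, overlapped between the lines at -0.44. BLMH, bleomycin hydrolase, read 150, 151 and 146 in E1, against 389, 223 and 375 in HCT116, at -0.96 (adjusted p = 0.120, limma). TRHDE, an M1 enzyme that degrades thyrotropin-releasing hormone, read 1.24 to 5.24 in E1 and 17.3 to 25.3 in HCT116. All of these lay below the median intensity of every array. TRHDE stood at -0.64 (adjusted p = 0.0907, limma) and at -2.82 with an offset of 1.

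Of 20 probe sets for 14 measured genes that make, cleave or sense angiotensin peptides, those with an unadjusted p under 0.05 numbered 1 higher and 2 lower, and the median was -0.03. CTSG, the serine protease cathepsin G, read 33.6, 35.6 and 46.4 in E1, against 8.43, 14.4 and 10.1 in HCT116. All of these lay below the median intensity of every array. Its log2 fold change was 0.71 (SE 0.13, adjusted p = 0.0832, limma), and 1.74 with an offset of 1. CTSA, lysosomal cathepsin A, read 318, 158 and 142 in E1, against 694, 430 and 504 in HCT116, at -1.32 (SE 0.31, adjusted p = 0.138, limma), and -0.69 with E1 array 1 alone. THOP1, the cytosolic oligopeptidase, read 176, 34.0 and 46.7 in E1, against 284, 216 and 267 in HCT116, at -1.48 (SE 0.43, adjusted p = 0.192, limma). Its low values lay on the E1 arrays with low 5′ control signal, and with E1 array 1 alone it stood at -0.46.

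The leukotriene list, 17 probe sets of 13 genes around LTA4H, had 0 probe sets at an unadjusted p under 0.05 in limma and a median of -0.01. Its leading members by p were the receptor CYSLTR2 at 0.38, the lipoxygenase ALOX5 at -0.24 and the glutathione transferase MGST3 at 0.20, with adjusted p of 0.470, 0.639 and 0.659. CYSLTR2 stood at 0.15 without HCT116 array 1. ALOX5 stood at -0.45 without E1 array 3 and between -0.11 and -0.16 without either other E1 array. MGST3 stood at 0.04 without E1 array 3 and 0.31 without E1 array 2. With an offset of 1 CYSLTR2 was at 1.02 and ALOX5 at -0.75. CYSLTR2 and this ALOX5 probe set, 204446_s_at, read below the median intensity of every array. The other ALOX5 probe sets stood at -0.25, -0.18 and 0.01. The list of cytosolic and endoplasmic reticulum peptide processing had 22 probe sets of 13 genes with a median of -0.17, and those with an unadjusted p under 0.05 numbered 1 higher and 3 lower. PSME3, a proteasome activator subunit, stood at -1.30 and -1.13 on the pair of its probe sets with the smallest p (adjusted p = 0.126 and 0.174, limma). Its other 2 probe sets overlapped between the lines, at -0.25 and -0.20, and THOP1 is also on this list.

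The intestinal brush border list, to which ANPEP, ENPEP and DPP4 belong by location, had 29 probe sets of 23 measured genes and a median of -0.01, and those with an unadjusted p under 0.05 numbered 1 higher and 4 lower. The glucose transporter SLC5A1 read 102, 79.1 and 109 in E1, against 43.4, 46.3 and 44.1 in HCT116, without overlap. Its log2 fold change was 0.74 (SE 0.13, adjusted p = 0.0799, limma). On 207254_at the peptide transporter SLC15A1 read 0.958 to 2.07 in E1 and 9.10 to 15.9 in HCT116, all below the median intensity of every array. Its log2 fold change there was -0.42 (adjusted p = 0.174, limma). Its other probe set, 211349_at, read 21.0 to 31.7 in E1 and 20.7 to 30.5 in HCT116, at 0.01. FABP2, the intestinal fatty acid-binding protein, also read below the median intensity of every array and stood at -0.46 (adjusted p = 0.184, limma). With an offset of 1 the values were -2.41 for SLC15A1 207254_at, -1.35 for FABP2 and 1.09 for SLC5A1.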

How the data were processed

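The deposited table, per the file headers, gives linear intensities of 22283 probe sets on 6 arrays. How the authors summarized and scaled them is not given in the sources used here. Intensities of the 6 arrays, grouped by sample title, were transformed as log2(intensity + 32) with no further normalization, and 68 control probe sets were left out. Of 22215 probe sets, 19065 had 1 symbol in the platform annotation, 1043 several and 2107 none. E1 was compared with HCT116 in limma 3.58.1 (R 4.3.3; lmFit and eBayes), with Benjamini-Hochberg adjustment over all probe sets, two-sided. The code was tested on simulated data. Alternatives were other scalings, offsets, a filter on dim probe sets, 1 probe set per gene, a trended robust fit, the replicate number as a block, E1 array 1 alone and each array left out. The number of arrays limits precision. Every member is reported. From each list, called probe sets or those with the smallest p are named, as are the 10 nearest measured genes on each side of AOPEP where called or adjacent, and the 5 genes most like AOPEP. FBP1 and FANCC were named after their values were seen. Members and lists were chosen with earlier results of these data known.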

Additional observations from a re-analysis of the deposited data

How the results depend on the processing

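The AOPEP log2 fold change was positive in all 15 alternative settings, from 2.77 to 3.15 when 1 array was left out, at 3.30 with an offset of 1 and 2.40 with an offset of 100. The count of 171 called probe sets was 111 with an offset of 100, 310 without dim probe sets, 50 with 1 probe set per gene, 0 with the replicate block (3126 at an unadjusted p under 0.05 in limma) and 0 with E1 array 1 alone (2791). Leaving out 1 array gave 5 to 2358 calls: 2358 without E1 array 1, 9 and 6 without E1 array 2 or 3, and 5, 6 and 6 without HCT116 array 1, 2 or 3. Calls split into 79 higher and 108 lower with quantile normalization and 79 and 127 with array medians subtracted, which moved the median of all probe sets to 0.13. Of the other aminopeptidases, 0 or 1 probe set was called; the 1 was NPEPPS 201454_s_at with an offset of 100 and without E1 array 1. Of the listed genes 1 was called in each of 5 settings: SLC5A1 with quantile normalization and with medians subtracted, SLC15A1 with an offset of 1, XPNPEP1 without dim probe sets and TRHDE in the trended fit. Without single arrays 0 to 10 were. Signs turned for RNPEP (0.01), ERAP1 209788_s_at (0.24), 210385_s_at (-0.04) and 214034_at (0.01) and NPEPPS 201455_s_at (-0.03) with E1 array 1 alone, and for ANPEP (0.01), ERAP1 214034_at (0.09) and DPP4 203716_s_at (0.02) with medians subtracted. Without single arrays these ERAP1 probe sets ran from -0.39 to 0.05, -0.02 to 0.12 and -0.12 to 0.04. FBP1 stood at 0.12 and FANCC at 0.09 with quantile normalization, at 0.12 and 0.01 with medians subtracted, FANCC at 0.18 with E1 array 1 alone, and FBP1 from -0.13 to 0.05 without single arrays. The cause of these changes was not tested. Deviations from the line mean correlated at -0.041, -0.312 and -0.086 for same-numbered arrays and from -0.123 to 0.207 for the others. They are centred within each line of 3 arrays, so they cannot tell whether equal replicate numbers mark pairs.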
